A study of Caenorhabditis elegans with 9 samples.

Results

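The cest genes of Caenorhabditis elegans encode the nematode's carboxylesterase-like proteins, and their members were taken as every spot whose gene symbol has the form cest-number. This rule found 34 spots for 32 genes, of 34 cest genes in the WBcel235 gene table and of 20858 features tested in all, 7179 of them named genes. cest-9.2 and cest-25 had no named spot and were not analysed here, and cest-1.1 and cest-4 had 2 spots each. All 32 members had values on enough arrays to be tested, which gave 287 values in all, with 1 missing (cest-32 on vhl-1 mutant array 2). Of the members, 30 are annotated as protein-coding and 2, cest-15 and cest-29, as pseudogenes.

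Total RNA of C. elegans was compared on 9 spotted 2-colour arrays, 3 for wild type, 3 for a hif-1 mutant and 3 for a vhl-1 mutant. Each array set an H sample, labelled with Cy3, against an N sample that shared its genotype and number and was labelled with Cy5. H is read as hypoxia (low oxygen) and N as normoxia, from the title of the series. The sources used here do not give the alleles, the stage or age of the animals, the oxygen level or the length of exposure. Values are log2 ratios of H over N, with each array's median at 0. A value is thus the difference between 2 RNAs in 1 gene, and the level of a gene in either RNA is not known. Neither base 2 nor the direction is stated; both are likely readings, the direction because the titles name N before H and ratios are usually given as channel 2 over channel 1. If H and N were the other way round, each sign below would turn and the p-values would stay. Because the dyes were never swapped, a dye effect on a probe and a response to H that is shared by all arrays cannot be told apart. Between genotypes a uniform dye effect cancels.

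Carboxylesterases hydrolyse ester, amide and thioester bonds and in animals take part in lipid metabolism and in the clearance of foreign compounds. They share the alpha/beta hydrolase fold with acetylcholinesterase and with neuroligin. In C. elegans several CEST proteins also work in the opposite sense, joining building blocks to ascarosides, the sugar-based pheromones of nematodes, in lysosome-related organelles of the intestine. cest-3 and cest-8 are known for attaching such groups to ascarosides, and cest-1.1 is needed for ascarosides that carry a gluconucleoside. HIF-1 is the transcription factor that accumulates in low oxygen, and VHL-1 marks it for degradation in normal oxygen. Loss of hif-1 therefore removes the factor, and loss of vhl-1 keeps it stabilised. Neither gene has a named spot, so these values hold no check of the genotypes.

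The family did not move as a block. A few members were higher in H on all or nearly all arrays, and most lay near 0. Of the 287 member values, 25 (8.71%) were above 1 and 5 (1.74%) below -1, against 4.84% and 5.03% of the values of all named genes. cest-12, cest-24 and cest-27 supplied 17 of the 25 high values. All values of 19 members lay within 1 of 0. The median over members ran from -0.10 on wild type array 3 to 0.37 on vhl-1 mutant array 2, while the median of all named genes stayed between -0.09 and 0.02 on the 9 arrays. The number of members above 0 ran from 14 of 32 on wild type array 3 to 23 on hif-1 mutant array 1 and on vhl-1 mutant array 2. The labels name no tissue, and fewer cells of a type and less RNA per cell cannot be told apart in these values. Means were above 0 in all 3 genotypes for 10 members (background 27.1% of all features) and below 0 in all 3 for 5 (background 24.7%).

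**Figure D1:**
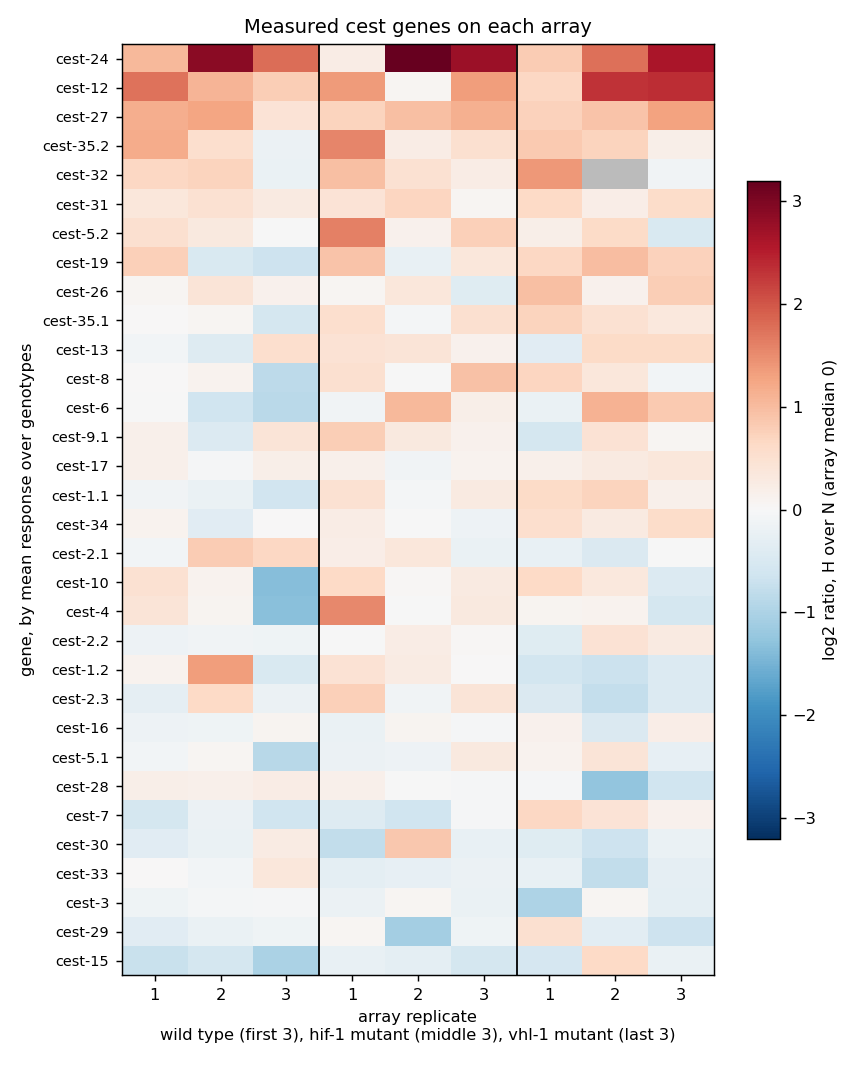
Colour gives the log2 ratio of H over N for each of the 32 cest genes (rows, ordered by their mean over genotypes) on each of the 9 arrays (columns, 3 per genotype); grey marks the 1 missing value. Red rows are concentrated at the top, in cest-24, cest-12 and cest-27, and most other rows are pale.

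The mean over the 3 genotypes, which uses all 9 arrays, asks whether a member's average response differs from 0. It does not ask for a response in each genotype. In limma, with Benjamini-Hochberg adjusted p-values computed across the 20858 features and a threshold of 0.05, 5 members rose and 0 fell: cest-24, cest-12, cest-27, cest-35.2 and cest-31. The background was 11% of all features higher and 10.5% lower, and 8.26% higher and 8.76% lower among named genes. The 5 of 32 were 15.6% of the members, and whether this share differs from either background was not tested. At an unadjusted p under 0.05 there were 7 members higher (background 19.2%) and 1 lower (17.2%). The median of the members' means was 0.14, beside 0.01 for all features. Means ranged from -0.39 in cest-15 to 1.89 in cest-24.

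cest-24 (sequence name T28C12.4; chromosome V, 6316932 to 6326392, WBcel235) had the highest mean of the family. Its log2 ratios were 1.03, 2.89 and 1.78 in wild type, 0.23, 3.20 and 2.75 in the hif-1 mutant and 0.81, 1.76 and 2.60 in the vhl-1 mutant. All 9 were above 0, array 1 was the lowest in each genotype, and the genotypes overlapped fully. The value on hif-1 mutant array 1 was far below the other arrays of that mutant. The means were 1.90 ± 0.94, 2.06 ± 1.60 and 1.72 ± 0.90 (SD, n = 3 each). Averaged over genotypes it rose by 1.89 (SE 0.293, limma adjusted p = 0.000906), or 3.72-fold. The 95% interval of the mean ran from 1.26 to 2.53.

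cest-12 (Y75B8A.3; chromosome III, 12101745 to 12107541) was next. It stood at 1.73, 1.08 and 0.80 in wild type, 1.36, 0.06 and 1.34 in the hif-1 mutant and 0.65, 2.31 and 2.37 in the vhl-1 mutant. All 9 values were above 0, with hif-1 mutant array 2 close to 0, and the vhl-1 mutant held both the highest values and one of the lowest. Its mean over genotypes was 1.30 (SE 0.206, limma adjusted p = 0.0011), a 2.46-fold rise.

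cest-27 (F56C11.6; chromosome I, 171225 to 175989) had the most even response of the 3. Its values were 1.16, 1.25 and 0.43 in wild type, 0.72, 0.97 and 1.14 in the hif-1 mutant and 0.73, 0.91 and 1.29 in the vhl-1 mutant. The genotype means were nearly equal, 0.95 ± 0.45, 0.95 ± 0.21 and 0.97 ± 0.28 (SD, n = 3 each). Over genotypes it rose by 0.96 (SE 0.135, limma adjusted p = 0.000485), or 1.94-fold. The calls of cest-24, cest-12 and cest-27 in the mean held without any single array and under every alternative run.

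cest-35.2 (C52A10.2) and cest-31 (K11G9.2), both on chromosome V, rose less. cest-35.2 was at 1.19, 0.53 and -0.19 in wild type, 1.56, 0.24 and 0.51 in the hif-1 mutant and 0.84, 0.71 and 0.20 in the vhl-1 mutant, higher on 8 of 9 arrays. Its mean was 0.62 (SE 0.177, limma adjusted p = 0.0262). The values of cest-31 were 0.35, 0.49 and 0.28 in wild type, 0.45, 0.69 and 0.07 in the hif-1 mutant and 0.64, 0.20 and 0.59 in the vhl-1 mutant, small and above 0 on all arrays. Its mean was 0.42 (SE 0.124, limma adjusted p = 0.0317), or 1.34-fold. Both calls depended on single arrays: cest-35.2 passed in 4 of the 9 fits with an array left out and cest-31 in 3, with highest adjusted p of 0.0749 and 0.0872. cest-35.2 lost its call without wild type array 1 or 2, hif-1 mutant array 1 or vhl-1 mutant array 1 or 2. cest-31 lost it without any wild type array, hif-1 mutant array 2 or vhl-1 mutant array 1 or 3. The count of 5 fell to 3 when the first array of the vhl-1 mutant, or the first or the second of wild type, was dropped.

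**Figure D2:**
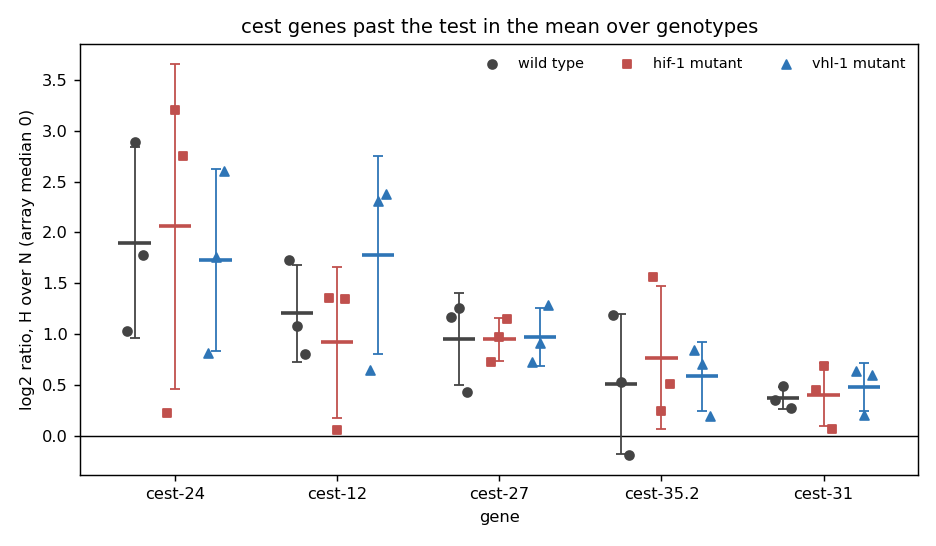
Points are the log2 ratios of H over N on single arrays for the 5 members past the test in the mean over genotypes; thick lines are genotype means and bars 1 SD (n = 3). cest-24, cest-12, cest-27 and cest-31 are above 0 on 9 of 9 arrays and cest-35.2 on 8 of 9, and the genotypes overlap for each gene.

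Values of one sign on all 9 arrays were found for 4 of the 31 members with complete values, cest-12, cest-24, cest-27 and cest-31, all higher (background 5.53% of all features). No member was lower on all 9 arrays (background 4.58%). The lower end of the family held both pseudogenes. cest-15 (W02B12.4, chromosome II) was at -0.71, -0.56 and -1.0 in wild type, -0.24, -0.32 and -0.56 in the hif-1 mutant and -0.53, 0.64 and -0.21 in the vhl-1 mutant. It was below 0 on 8 of 9 arrays, with vhl-1 mutant array 2 above, and its mean of -0.39 did not pass (SE 0.142, limma adjusted p = 0.068). Without that array its mean was -0.50 and passed (adjusted p = 0.0363), as it did with arrays scaled to one spread (0.049) and with print block centring (0.0397).

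cest-29 (F07C4.12, chromosome V), the other pseudogene, was at -0.36, -0.21 and -0.15 in wild type, 0.07, -1.09 and -0.13 in the hif-1 mutant and 0.51, -0.34 and -0.66 in the vhl-1 mutant. cest-3, which attaches groups to ascarosides, was at -0.14, -0.06 and -0.05 in wild type, -0.17, 0.07 and -0.22 in the hif-1 mutant and -0.98, 0.05 and -0.31 in the vhl-1 mutant. cest-33 was at 0.02, -0.09 and 0.35 in wild type, -0.31, -0.27 and -0.18 in the hif-1 mutant and -0.22, -0.78 and -0.29 in the vhl-1 mutant. For these 3 genes 7 of 9 values were below 0, and none passed in the mean (limma adjusted p from 0.256 to 0.295). With print place centring cest-33 passed, lower, at -0.39 (adjusted p = 0.0479).

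**Figure D3:**
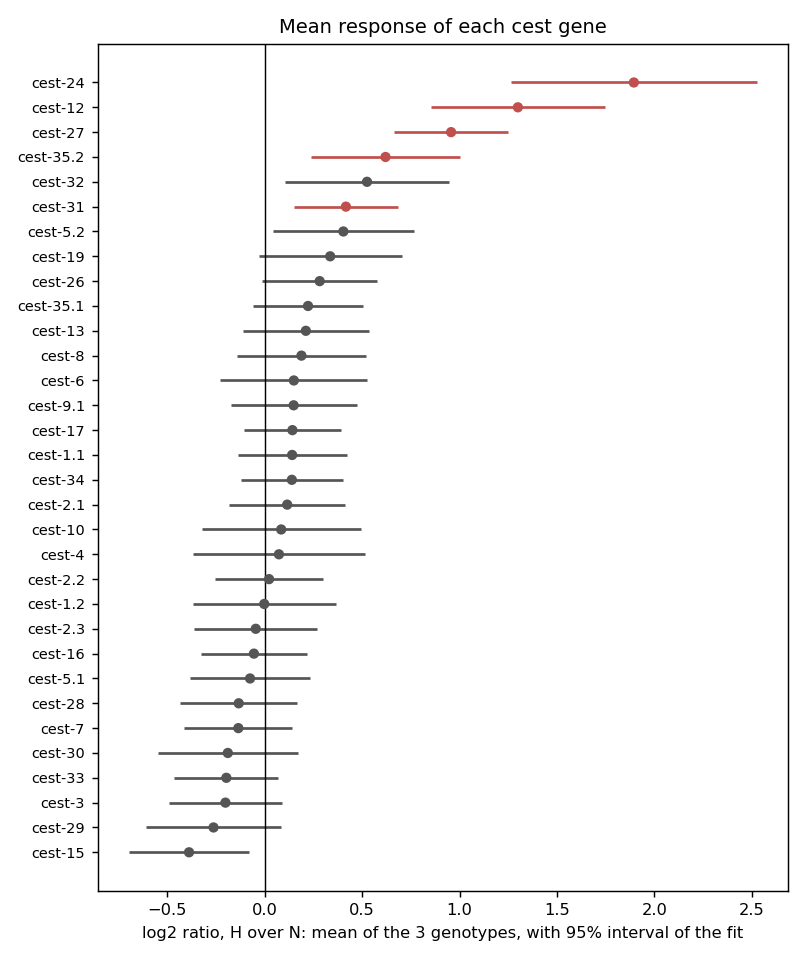
Points are the mean log2 ratio of H over N over the 3 genotypes for each of the 32 members, with the 95% interval of the limma fit; red marks the 5 members past the adjusted threshold. The intervals of cest-24, cest-12 and cest-27 lie farthest from 0, and that of cest-15 is the lowest.

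Most other protein-coding members were closer to 0 or differed between arrays. cest-32, beside cest-35.2 on chromosome V, was at 0.66, 0.71 and -0.20 in wild type, 0.97, 0.48 and 0.24 in the hif-1 mutant and 1.38 and -0.12 on the 2 measured arrays of the vhl-1 mutant. It was above 0 on 6 of 8 arrays, and its mean of 0.53 did not pass (limma adjusted p = 0.0702). cest-5.2 was at 0.50, 0.30 and -0.01 in wild type, 1.61, 0.15 and 0.75 in the hif-1 mutant and 0.19, 0.62 and -0.48 in the vhl-1 mutant, with a mean of 0.40 (limma adjusted p = 0.102). cest-26 was above 0 on 8 of 9 arrays, with its highest values, 0.95 and 0.79, in the vhl-1 mutant. cest-17 had the narrowest range, from -0.11 to 0.37, and cest-16 (-0.46 to 0.22) and cest-2.2 (-0.40 to 0.47) also stayed near 0 on every array. cest-9.1, cest-13, cest-30, cest-34, cest-5.1 and cest-2.1 had values on both sides of 0 in at least 2 genotypes each, between -0.89 and 0.86.

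In wild type, where HIF-1 and its regulation are intact, limma called 0 members (background 1.42% of all features), with 4 at an unadjusted p under 0.05, 12.5% of the members beside 13.1% of all features. The 4 were cest-24 (mean 1.90, adjusted p = 0.103), cest-12 (1.2, adjusted p = 0.15), cest-27 (0.95, adjusted p = 0.0737) and, lower, cest-15 (-0.76 ± 0.23, SD, n = 3; adjusted p = 0.196). Of the members 16 had a mean above 0 and 16 below, with a median of -0.03. Among all features 50.8% had a mean above 0, with a median of 0.008. With hif-1 mutant array 1 dropped from the fit the count was 1, as cest-24 then passed (limma adjusted p = 0.0248). Its wild type mean was 1.90 in that fit as well. The genotypes share the same residual spread per feature, so an array of another genotype enters the test.

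The hif-1 mutant asks what still changes without the factor. limma called 0 members (background 1.75%), with 5 at an unadjusted p under 0.05, all higher: 15.6% of the members beside 10.2% of all features in that direction. They were cest-24 (2.06, adjusted p = 0.0588), cest-27 (0.95, adjusted p = 0.0593), cest-12 (0.92, adjusted p = 0.177), cest-5.2 (0.84, adjusted p = 0.138) and cest-35.2 (0.77, adjusted p = 0.187). The median over members was 0.28 and 24 of 32 means were above 0. Among all features the median was 0.02 and 52.1% of means were above 0. Whether the members differ from all features was not tested. On hif-1 mutant array 1 the highest members were cest-5.2 (1.61), cest-35.2 (1.56) and cest-4 (1.54), and each was higher there than on the other arrays of the mutant, while cest-24 was lower there. Without that array cest-24 stood at 2.97 and passed (adjusted p = 0.0142), and cest-35.2 stood at 0.37.

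In the vhl-1 mutant, in which HIF-1 is known to be stable also in normal oxygen, cest-12 and cest-27 passed, both higher, and 0 members were lower (background 4.03% higher and 5.15% lower). cest-12 rose by 1.78 ± 0.98 (SD, n = 3; limma adjusted p = 0.0101), or 3.43-fold, and cest-27 by 0.97 ± 0.28 (SD, n = 3; limma adjusted p = 0.0234). cest-24, at 1.72, did not pass (limma adjusted p = 0.0509). It passed in 4 of 10 other settings and in 2 of 9 fits with an array dropped. Those 2 fits lacked the first or the second array of the hif-1 mutant (limma adjusted p = 0.0151 and 0.0326), and the vhl-1 mutant mean of cest-24 was 1.72 in both. At an unadjusted p under 0.05 there were 9 members higher and 2 lower, where 13.4% and 13.6% of all features were. Besides the 3 already given, the higher ones were cest-19 (0.79), cest-26 (0.63), cest-35.1 (0.51), cest-1.1 (0.49), cest-31 (0.48) and cest-34 (0.47), and the lower ones cest-28 (-0.64) and cest-2.3 (-0.55). Their limma adjusted p ran from 0.106 to 0.179. Both calls were lost, and the count was 0, without vhl-1 mutant array 2 or array 3; cest-12 then had an adjusted p of up to 0.112 and cest-27 of up to 0.185.

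The differences between genotypes ask whether the response of a member depends on HIF-1 or on its regulation by VHL-1. limma called 0 members in each of the 3 differences, where 0%, 0.00479% and 0% of all features passed. For the hif-1 mutant minus wild type 0 members had an unadjusted p under 0.05 (5.94% of all features). For the vhl-1 mutant minus wild type there were 5 (10.1% of all features), and for the vhl-1 mutant minus the hif-1 mutant 2 (6.41%). The median half-width of the members' 95% intervals, which are not adjusted over features, was 0.76 for a difference. Larger differences also failed the adjusted test. For cest-6 the vhl-1 mutant minus wild type was 1.09 (limma adjusted p = 0.411). With 3 arrays per genotype, the lack of a call thus does not show the lack of a difference. For cest-27 the vhl-1 mutant minus wild type was 0.03, with an interval from -0.69 to 0.74, and for cest-24 it was -0.17, with an interval from -1.72 to 1.37. For cest-24 the hif-1 mutant minus wild type was 0.16, from -1.39 to 1.71, and for cest-12 it was -0.28, from -1.37 to 0.81.

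The arrays of 2 genotypes did not overlap for 8 members in the vhl-1 mutant minus wild type (background 18.5% of all features), for 5 in the hif-1 mutant minus wild type (9.6%) and for 4 in the vhl-1 mutant minus the hif-1 mutant (11.6%). cest-7, on chromosome X, was at -0.56, -0.19 and -0.63 in wild type, -0.40, -0.65 and -0.03 in the hif-1 mutant and 0.67, 0.44 and 0.14 in the vhl-1 mutant. All vhl-1 mutant values were above 0 and all others below. Such opposite signs were found for 3 members in the vhl-1 mutant minus wild type (background 3.88%), for 2 in the vhl-1 mutant minus the hif-1 mutant (1.82%) and for 0 in the hif-1 mutant minus wild type (2.02%). The H over N log ratio of cest-7 was 0.88 higher in the vhl-1 mutant than in wild type (SE 0.314, limma adjusted p = 0.375). It was 0.77 higher than in the hif-1 mutant (limma adjusted p = 0.771).

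cest-1.1, the gene needed for gluconucleoside ascarosides, was at -0.12, -0.20 and -0.61 in wild type, 0.50, -0.07 and 0.29 in the hif-1 mutant and 0.62, 0.71 and 0.15 in the vhl-1 mutant. Wild type lay below both mutants, and the vhl-1 mutant minus wild type was 0.80 (SE 0.317, limma adjusted p = 0.411). Its 2 spots differed by a median of 0.093 over the arrays, less than the median of 0.346 over 545 genes with 2 spots.

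cest-6 had the largest difference from wild type. It was at -0.01, -0.65 and -0.87 in wild type, -0.12, 1.05 and 0.20 in the hif-1 mutant and -0.20, 1.1 and 0.84 in the vhl-1 mutant. The arrays overlapped, and its differences from wild type were 0.88 in the hif-1 mutant (limma adjusted p = 0.855) and 1.09 in the vhl-1 mutant (limma adjusted p = 0.411). The former was 0.54 without hif-1 mutant array 2.

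cest-28 went the other way in the vhl-1 mutant, at -0.03, -1.26 and -0.63 there, against 0.18, 0.17 and 0.24 in wild type and 0.17, -0.01 and -0.04 in the hif-1 mutant. The vhl-1 mutant minus wild type was -0.84 (SE 0.34, limma adjusted p = 0.43), and -0.53 without vhl-1 mutant array 2. cest-2.3 was at -0.46, -0.77 and -0.43 in the vhl-1 mutant, 0.77, -0.11 and 0.42 in the hif-1 mutant and -0.28, 0.65 and -0.20 in wild type. The vhl-1 mutant lay below both other genotypes, by 0.91 on average from the hif-1 mutant (SE 0.356, limma adjusted p = 0.768). cest-1.2, chosen after its values were seen, was at -0.58, -0.69 and -0.43 in the vhl-1 mutant and 0.47, 0.26 and 0.01 in the hif-1 mutant, with wild type spread from -0.49 to 1.34.

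**Figure D4:**
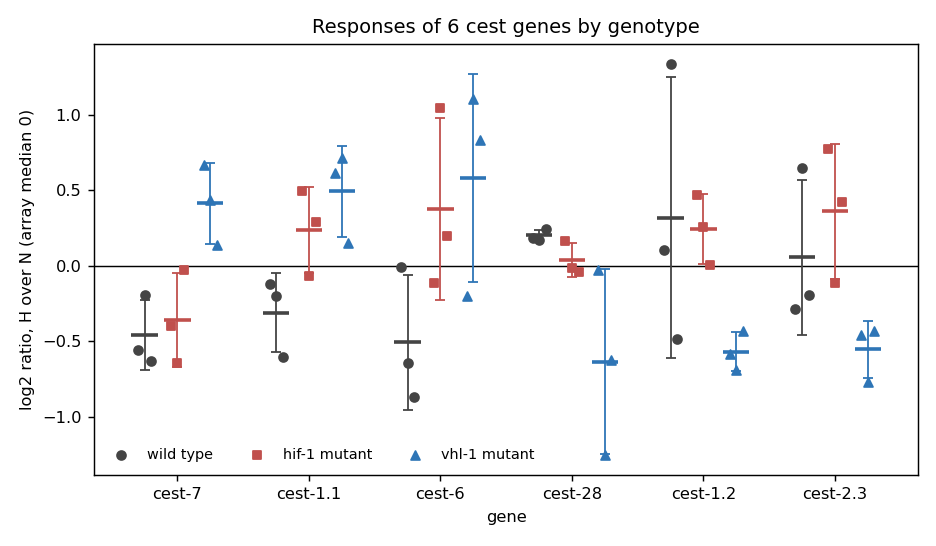
Points are the log2 ratios of H over N on single arrays for 6 members, with the genotype mean (thick line) and 1 SD (bar, n = 3). The vhl-1 mutant lies above 0 for cest-7 and cest-1.1 and below 0 for cest-28, cest-1.2 and cest-2.3, and none of these differences passed the test over all features.

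For the hif-1 mutant minus wild type the members with the lowest p were cest-6, cest-8 and cest-4. cest-8, which attaches groups to ascarosides, was at 0.01, 0.11 and -0.83 in wild type, 0.51, -0.02 and 0.94 in the hif-1 mutant and 0.69, 0.37 and -0.08 in the vhl-1 mutant. The hif-1 mutant was 0.72 higher than wild type (SE 0.378, limma adjusted p = 0.881), which became 0.42 when wild type array 3 was dropped. cest-4 was at 0.41, 0.09 and -1.34 in wild type, 1.54, -0.01 and 0.31 in the hif-1 mutant and 0.10, 0.11 and -0.56 in the vhl-1 mutant. The arrays of both genes overlapped, and the difference in cest-4 was 0.89 (limma adjusted p = 0.898), with wild type array 3 far below and hif-1 mutant array 1 far above its other values. It was 0.36 without the former array and 0.43 without the latter. The 2 spots of cest-4 differed by a median of 0.456 and by up to 0.999.

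Of the members 1 lies on chromosome I, 1 on II, 1 on III, 5 on IV, 16 on V and 8 on X. With at most 50 kb between neighbours, 20 of them fall into 6 groups. The largest holds cest-1.2, cest-1.1, cest-2.1, cest-2.2 and cest-2.3 (chromosome V, 14157663 to 14182960). Groups of 4 hold cest-32, cest-35.2, cest-35.1 and cest-30 (chromosome V, 5230475 to 5263099) and cest-8, cest-9.1, cest-7 and cest-3 (chromosome X, 12219660 to 12244657). A further group holds cest-28, cest-31 and cest-34, and pairs are formed by cest-24 with cest-33 and by cest-5.2 with cest-5.1. Of the 5 members that rose in the mean, cest-12 and cest-27 stood alone and the other 3 came from 3 different groups.

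Neighbours had means on either side of 0. In the group of 5, cest-1.1 was at 0.49 ± 0.30 in the vhl-1 mutant while cest-1.2 was at -0.57 ± 0.13 and cest-2.3 at -0.55 ± 0.19 (SD, n = 3 each). cest-33 was at -0.43 in the vhl-1 mutant and its neighbour cest-24 at 1.72. Within the group of 3, cest-28 was at -0.64 and cest-34 at 0.47. As a description, correlations across the 9 arrays were computed after each genotype's mean was taken off. Their median was 0.16 over the 24 pairs of members that share a group and have complete values. It was -0.01 over all 465 pairs of members and 0.05 over 29913 pairs of named genes at most 50 kb apart. With the genotype means left in, these medians were -0.17, 0.03 and 0.04, so the sign within groups turned with the measure. The arrays that enter each correlation are the same, so the pairs are not independent. With the genotype means taken off, pairs within a group ranged from -0.81 (cest-35.1 with cest-30) to 0.88 (cest-8 with cest-7). Close copies may share labelled RNA on the array; the part of this in the values was not tested. cest-9.1 and cest-7 also overlap on the chromosome.

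Other genes of the same chemistry were scarce among the named spots. None of the listed esterase and lipase relatives, cytochrome P450 and dehydrogenase genes or export genes was measured under its name. Some acyl-CoA oxidases shorten ascaroside side chains in peroxisomes, and 3 genes with an acox symbol were measured. Whether each of the 3 has this role was not checked. In the mean over genotypes 2 of the 3 rose (background 11% of all features higher), acox-1.6 by 0.45 (SE 0.143, limma adjusted p = 0.0395) and acox-3 by 0.44 (SE 0.142, limma adjusted p = 0.0442), and acox-1.4 was at 0.29 (adjusted p = 0.212). The list's median was 0.44 and 0 of the 3 passed in any single genotype. Of the UDP-glucuronosyltransferases, which attach a sugar to foreign compounds, ugt-66 (-0.32) and ugt-67 (-0.18) did not pass in the mean (adjusted p = 0.303 and 0.301). Of the marker lists for intestine and yolk, germ line, muscle and neurons 0 genes had a named spot, so the tissue was not checked. Of the cuticle genes, many of which follow the moulting cycle, 5 were measured (col-2, col-7, col-17, col-19 and dpy-7) and 0 passed in any genotype or in the mean. The median of these 5 was 0.06 for wild type, 0.74 for the hif-1 mutant and 0.26 for the vhl-1 mutant. In the hif-1 mutant they ran from -0.21 (col-7) to 1.015 (col-17). The part of moulting or developmental stage in the cest values was not tested.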

How the data were processed

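The authors deposited 1 value for each spot of each array, taken here to be log2 ratios of N over H, which lay near a median of 0 as deposited. Their sign was turned (array medians then from -0.061 to 0.062). Base and direction are assumed. The sources used here give no image analysis, background correction or normalisation, and spot intensities and so signal over background were not used here. Of 21888 spots on 9 arrays, 3303 null and 1156 empty entries count as missing. Spot names came from the platform annotation (7774 spots with 1 name, 0 with several, 14114 with none), and 7741 were matched by gene identifier to a WBcel235 gene table, which also gave positions.

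After median centring of each array, replicate spots of a gene were averaged and features with at least 2 values in every genotype were kept. limma 3.58.1 in R 4.3.3 fitted 1 mean per genotype to all 9 arrays (6 residual and 6.95 prior degrees of freedom), with Benjamini-Hochberg adjustment over all 20858 features and a threshold of 0.05. Whether replicates came from separate cultures is not in the labels, so p-values reflect only the spread between these samples, which may be technical. The 3 arrays per genotype limit the precision. The correlation between arrays across spots ran from 0.0722 to 0.703.

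Members, lists and tests were chosen with earlier results of these data known. Values on every array are given for members past the threshold in any contrast, the 4 highest and 4 lowest means, the 3 lowest p in each difference, and cest-12, cest-24, cest-27, cest-31 and cest-35.2. Other members with values, and the acox, ugt and cuticle genes named, were chosen after their values were seen. Alternatives covered centring, scaling, print position, the features and arrays fitted, missing values, the variance model, a replicate block and each array left out. Print block and print place were inferred from the order of the spot numbers and not read from a stated layout. Each spot tested on its own was added after the data were seen.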

Additional observations from a re-analysis of the deposited data

Results flagged for a closer look

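In 4 members every array of one genotype lay above 0 and every array of another below 0. For cest-7 the vhl-1 mutant minus wild type was 0.88 (limma adjusted p = 0.375) and the vhl-1 mutant minus the hif-1 mutant 0.77 (adjusted p = 0.771). For cest-1.1 the vhl-1 mutant minus wild type was 0.80 (adjusted p = 0.411), and for cest-28 it was -0.84 (adjusted p = 0.43). For cest-1.2 the vhl-1 mutant minus the hif-1 mutant was -0.81 (adjusted p = 0.792), with 1 hif-1 mutant array only 0.005 above 0. Each difference was tested and none passed. Opposite signs of this kind were found for 3 of 32 members in the vhl-1 mutant minus wild type (3.88% of all features), for 2 of 32 in the vhl-1 mutant minus the hif-1 mutant (1.82%) and for 0 in the hif-1 mutant minus wild type (2.02%).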

How the results depend on the processing

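The call counts of members (0 for wild type, 0 for the hif-1 mutant, 2 for the vhl-1 mutant, 5 for the mean and 0 for each difference as reported) changed as follows. The share of all features called in the same setting stands in brackets; as reported it was 1.42% for wild type, 1.75% for the hif-1 mutant, 9.18% for the vhl-1 mutant and 21.5% for the mean. For wild type the count was 2 with arrays scaled to one spread (cest-24 and cest-27; 2.59%), 1 (cest-24) with the wild type arrays alone (2.06%) and 1 (cest-24) with the replicate block (1.53%). For the hif-1 mutant it was 1 with print block centring (cest-27, adjusted p = 0.0499; 1.63%) and 1 with the replicate block (cest-24, adjusted p = 0.0104; 2.04%). For the vhl-1 mutant it was 4 with that genotype alone (13.3%), which added cest-19 and cest-24. It was 3 with cest-24 added by the replicate block (adjusted p = 0.00766; 8.75%), by values as deposited (0.0489) and by values on all 9 arrays (0.0491), and 3 with cest-19 added by print block centring (0.0413; 11%). For the mean it was 8 with print block centring (24.7%), 4 of them among the 5 reported; cest-26, cest-32, cest-35.1 and, lower, cest-15 were added and cest-31 was lost. It was 6 with scaling (20.7%), which added cest-15, lower, and 4 with print place centring (17.8%), which lost cest-31 and cest-35.2 and added cest-33, lower. With an array left out the counts ran from 0 to 1 for wild type and for the hif-1 mutant, from 0 to 3 for the vhl-1 mutant and from 3 to 5 in the mean, and were 0 in every difference. Among the named members cest-35.2 lost its call in the mean with print place centring (adjusted p = 0.0608), and cest-31 in 3 of 9 alternatives other than left-out arrays, print block centring, print place centring and the replicate block. Of 2126 refitted values of the named members, 67 had the other sign; as reported, these 67 were within 1 SE of 0 and had not passed, nor did they pass when refitted. The cause of these changes was not tested. Across all features, same-numbered arrays of different genotypes did not deviate together (9 pairs, correlation from -0.199 to 0.269). Of the 9 arrays, 3 correlated best with their own number, so the numbers were not used to pair samples. In cest-24, however, array 1 was the lowest in each genotype. With the replicate block the count in the mean was again 5 (19.7%), 4 of them among those reported. There cest-31 was lost and cest-32 gained (limma adjusted p = 0.0367). Signal over background is unknown, so weak spots could not be told from strong ones.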

Other observations

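A set of members, chosen after their values were seen and so not tested, followed one pattern over the arrays; among them cest-35.1 and cest-35.2 are neighbours. cest-4, cest-10, cest-35.2, cest-35.1, cest-1.1 and cest-8 were all below 0 on wild type array 3, at -1.34, -1.35, -0.19, -0.56, -0.61 and -0.83. On hif-1 mutant array 1 all 6 were above 0, at 1.54, 0.64, 1.56, 0.53, 0.50 and 0.51. Of all 32 members, 14 were above 0 on the former array and 23 on the latter. Further members had the same signs on these arrays, such as cest-5.2 (-0.006 and 1.61) and cest-19 (-0.655 and 0.901). Others had the opposite signs, such as cest-33 (0.355 and -0.308) and cest-30 (0.269 and -0.788). cest-30 is in the same group as cest-35.1 and cest-35.2. With each genotype's mean taken off, it correlated with them at -0.81 and -0.80. With each genotype's mean taken off, cest-4 correlated with cest-35.2 at 0.97 and cest-35.1 with cest-8 at 0.94 across the 9 arrays. Within the same set cest-35.2 with cest-8 was at 0.60. The highest of all 465 pairs was cest-2.2 with cest-3, at 0.98. Over all 465 pairs of members 7.74% had such a correlation above 0.7, where 6.11% of all pairs of named genes did.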
